A study of Mus musculus with 12 samples.

Results

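A group of 36 genes had lower mRNA levels in IEC4.1 cells that received siRNAs against the lncRNA Nostrill, both without and with IFN-γ. The genes were chosen by their measured values among the 15002 genes of the deposited tables. A gene was taken when its mean in siR_Ctrl cells was at least 1 FPKM (fragment counts scaled for transcript length and for the mapped fragments of the library) and the ratio of the siR_Nostrill mean to the siR_Ctrl mean was at most 0.8 in each state. In each state the highest siR_Nostrill library also had to lie below the lowest siR_Ctrl library. Of 10466 genes past the level filter, 352 (3.36%) met the criteria without IFN-γ, 365 (3.49%) with IFN-γ and 39 (0.373%) in both states. Edn1, Wwc1 and Dhx40 were then left out by name, which gave the 36 genes. The mirrored rule, with a ratio of at least the inverse of 0.8, was met by 78 genes (0.745%), and 77 of them stayed after the same exclusions by name.

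The paper describes IEC4.1 as a line of intestinal epithelial cells from newborn mice. Cells in all 4 groups were transfected with siRNA for 24 h, with 3 libraries in each group. siR_Ctrl cells had a scrambled siRNA at 120 nM, and siR_Nostrill cells had a pool of 3 siRNAs at 40 nM each. The siR_Ctrl + IFN-γ and siR_Nostrill + IFN-γ groups were then given IFN-γ at 1 ng/ml for 4 h per the study's methods, and the labels give 24 h for every library. In bulk RNA, fewer cells of a type and less RNA per cell cannot be told apart.

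The libraries held from 17824306 to 19093204 reads on genes. The sum of FPKM over all genes, which rises when short transcripts take more of the reads, ran from 570935 in siR_Ctrl replicate 1 to 794809 in siR_Ctrl + IFN-γ replicate 2. Values of long and short genes therefore shifted between libraries. The members' ratios, the choice of members and the IFN-γ calls were also computed with the length trend removed, while the genes raised in both states, those lowered in a single state and the readings of left-out libraries rest on FPKM alone. The median fold changes and summed values of the gene lists below were not corrected for the length trend either. Of 8 epithelial markers fixed for the check of the cell type, 4 were in the tables, and Krt8, Krt18, Krt19 and Vil1 together reached 1.23 to 3.05 FPKM per library. The 8 mesenchymal markers, among them Vim and Col1a1, summed to between 2110 and 2660 FPKM, and the leukocyte markers measured did not exceed 0.2 FPKM in sum. The markers measured thus go against the epithelial name of the line, and the identity of the cells was not tested further. Nostrill itself was not analysed here.

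An siRNA acts through its guide strand, which a protein of the Argonaute family holds and which directs cleavage of an RNA that pairs along its whole length. Bases 2 to 8 of the guide, the seed, can also pair with messenger RNAs that match in no other part, mostly in the 3′UTR, and such messages can be lowered in the manner of microRNA targets. A match followed by an A opposite base 1 of the guide is known as the strongest kind of seed site. The other strand of the duplex, the passenger, is normally discarded. The sequences of the 3 guides are shown because the matches below derive from them. They were read from the sense strands that the study lists, are written 5′ to 3′ and have the seed in capitals.
Nostrill-1 guide: aUUAAUGCuucuucccagg
Nostrill-2 guide: aUUUGUGUguuccuggugg
Nostrill-3 guide: aUUAGAACgacuuauaggc

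Of the 36 genes, 35 have an annotated 3′UTR in GENCODE release 21 of GRCm38, and 28 of these 35 (80.0%) contained the complement of bases 2 to 8 of some guide there. The same was true of 2829 of 10333 genes past the level filter (27.4%) and of 6 of the 77 genes raised in both states (7.79%). A match with an A opposite base 1 was present in 23 of the 35 (65.7%), beside 12% of the genes past the level filter and 2.60% of the raised genes. The 3′UTRs of the 35 genes had a median length of 1030 bases, beside 1180 bases past the level filter and 948 bases in the raised genes. Per kilobase of 3′UTR they held 0.916 matches, beside 0.243 past the level filter and 0.109 in the raised genes. The match was not used to choose the genes, and the shares are given as descriptions with no test of the set.

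The 3 guides were not represented alike. The Nostrill-1 match, GCATTAA, was present in 16 of the 35 genes (45.7%) and in 8.64% of genes past the level filter. The Nostrill-2 match, ACACAAA, was present in 14 (40%) beside 15.4%, and the Nostrill-3 match, GTTCTAA, in 6 (17.1%) beside 9.71%. Per kilobase, the members held 0.402, 0.380 and 0.134 matches for the 3 guides in that order, beside 0.0580, 0.119 and 0.0667. For the seeds of the passenger strands, 14 of the 35 genes (40%) held a match, beside 37.3% past the level filter and 32.5% of the raised genes. For the shorter match to bases 2 to 7 of a guide, the shares lay closer together, at 85.7% of the 35 genes and 63.3% past the level filter. In the coding sequence a guide match was present in 7 of the 35 (20%), beside 16.4% past the level filter.

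**Figure D1:**
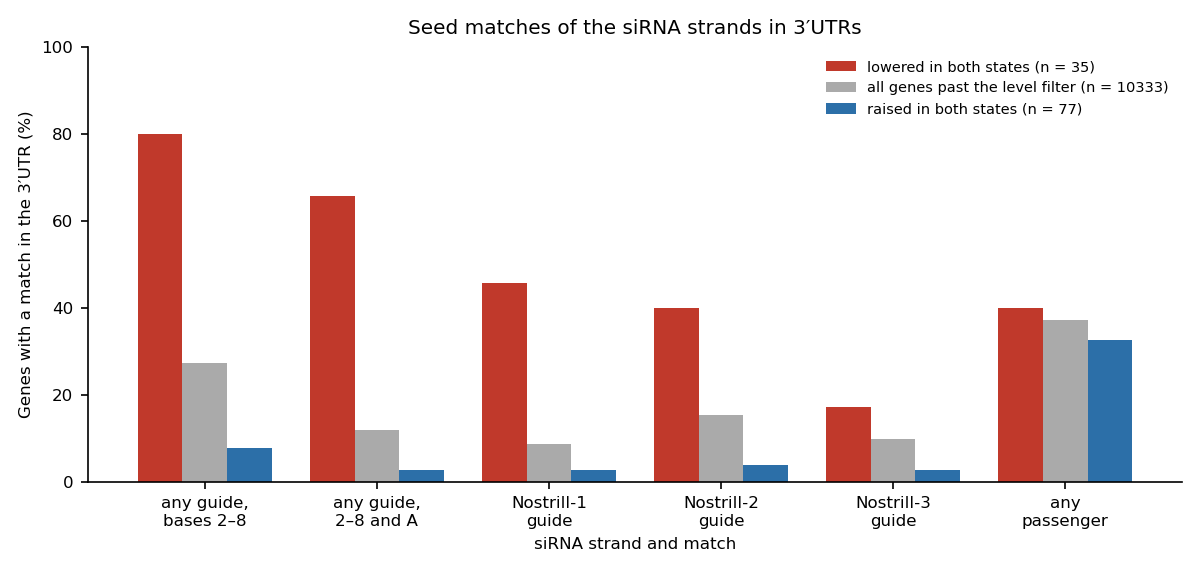
Bars show the percentage of genes with a 3′UTR match to the siRNA strand named below them, for the genes lowered in both states (red, 35 with a 3′UTR), all genes past the level filter (grey) and genes raised in both states (blue, 77). The red bars for any guide stand at 80.0% and 65.7% above grey bars at 27.4% and 12%, and the 3 bars for the passenger strands lie between 32.5% and 40%.

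The sites below are those of the 10 named genes with the lowest mean log2 ratio among genes with an A opposite base 1 or with more than 1 site. Gm20604 would rank among them and is left out as a predicted gene with group means below 5 FPKM. Each is the 19 bases that lie opposite the guide, read from GENCODE transcripts 5′ to 3′ along the messenger RNA, with the seed match and a following A in capitals. All lie in the 3′UTR of the gene named, with GRCm38 coordinates and strand.
Pkia, Nostrill-2 site at chr3:7444827-7444845 (+): ataacctagaaACACAAAA
Fgf7, Nostrill-1 site at chr2:126089735-126089753 (+): tttaaaagactGCATTAAA
Fgf7, Nostrill-2 site at chr2:126089761-126089779 (+): ttgaagaatatACACAAAA
Fgf7, Nostrill-2 site at chr2:126090019-126090037 (+): gatcaagccccACACAAAc
Fgf7, Nostrill-1 site at chr2:126090431-126090449 (+): ctgtgattacaGCATTAAA
Gsr, Nostrill-1 site at chr8:33697926-33697944 (+): tggaacaaagtGCATTAAA
Mlycd, Nostrill-1 site at chr8:119411053-119411071 (+): ttgttctgtaaGCATTAAA
Ssx2ip, Nostrill-1 site at chr3:146440103-146440121 (+): ctgtgactgttGCATTAAA
Bud23, Nostrill-1 site at chr5:135052972-135052990 (-): ttgtcctaaatGCATTAAA
Apol10b, Nostrill-1 site at chr15:77584895-77584913 (-): tttttttttaaGCATTAAt
Apol10b, Nostrill-2 site at chr15:77584841-77584859 (-): ccaaaaagattACACAAAA
Eif3a, Nostrill-2 site at chr19:60761958-60761976 (-): gtctcaccataACACAAAA
Kcnk2, Nostrill-2 site at chr1:189208166-189208184 (-): gatgtttaaaaACACAAAA
Wbp2, Nostrill-2 site at chr11:116078711-116078729 (-): tcctggtccagACACAAAA
Wbp2, Nostrill-2 site at chr11:116078664-116078682 (-): ctatttatttgACACAAAA

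Outside the seed these sites paired little with the guides. Over the 41 sites of the 28 genes, a median of 10 of the 19 bases paired, with a range of 7 to 13, and the median over the 4188 sites of all genes past the level filter was also 10. In none of the 35 genes did any stretch of the representative transcript pair with a guide at more than 14 of 19 bases, and the highest value past the level filter was 16. Of the 41 sites, 26 (63.4%) were followed by an A, beside 35.2% of the 4188. The 30 bases on either side of a site were 68.3% A or U at the median in the members, beside 60.0%. The sites of the members lay a median of 184 bases from the nearer end of the 3′UTR, beside 602 bases, in 3′UTRs that were themselves shorter (median 1610 bases beside 2860).

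Several members held more than 1 site. Fgf7 had 4, a Nostrill-1 and a Nostrill-2 site at bases 185 and 211 after the stop codon and a further pair at bases 469 and 881. Rell1 also had 4 and was matched by all 3 guides, as was Gzf1 with 3 sites. Wbp2 had Nostrill-2 sites at bases 825 and 872 after the stop codon, both followed by an A. Ankmy2, Apol10b, Rnf6 and Gm20604, a predicted gene named here after its values were seen, had 2 sites each. Altogether 8 of the 35 genes (22.9%) had 2 or more sites, beside 8.40% of genes past the level filter.

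**Figure D2:**
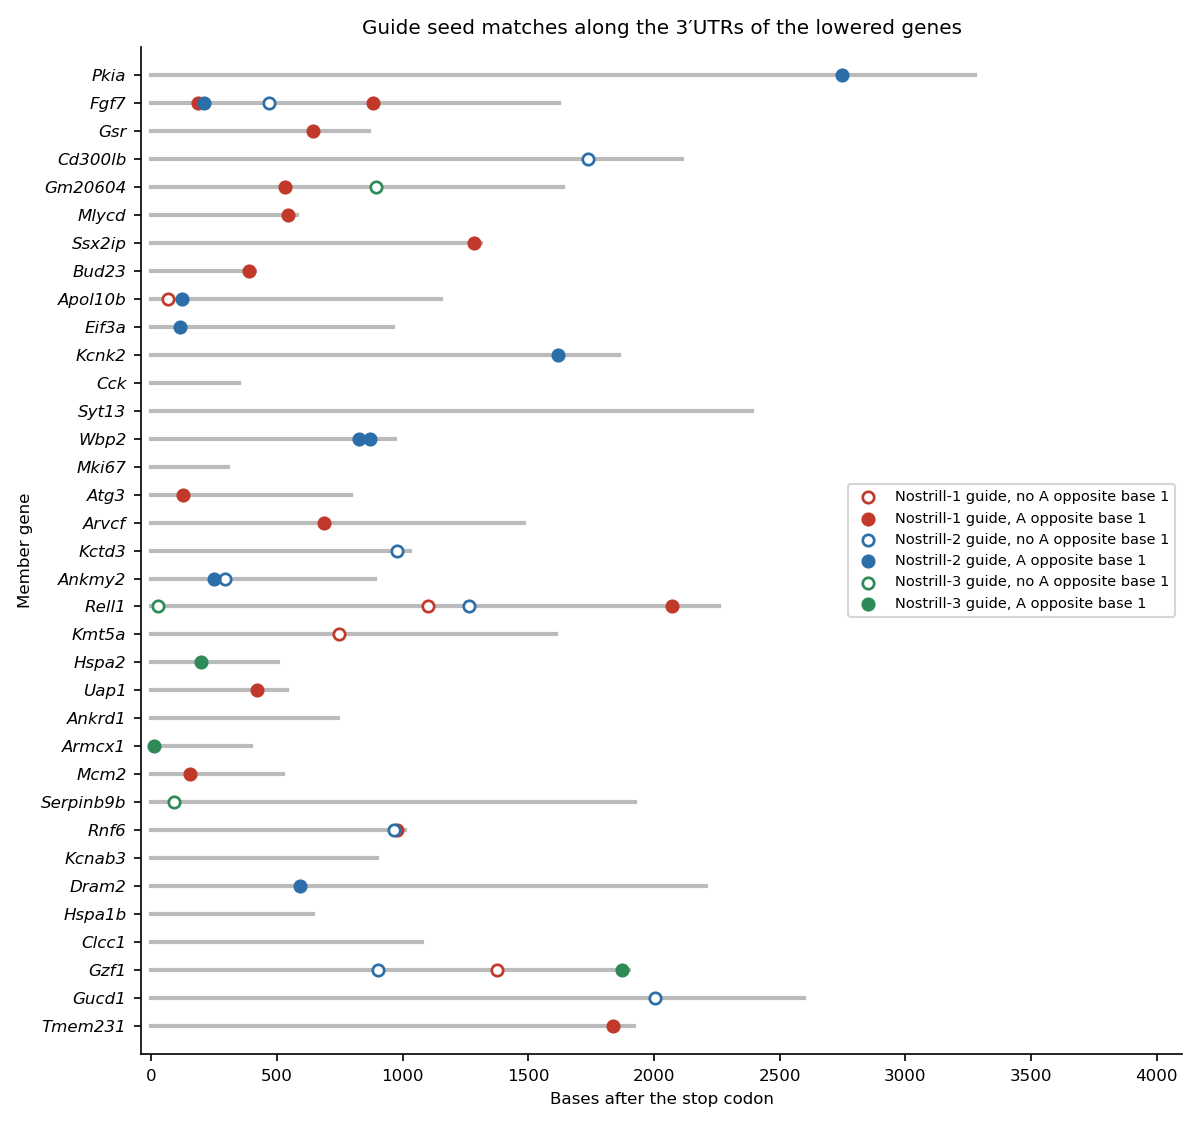
Each grey line is the longest annotated 3′UTR of a member, from the stop codon at 0, and circles mark guide seed matches by their distance after the stop codon in bases. Filled circles have an A opposite base 1. Genes are ordered from the lowest mean log2 ratio at the top, and 7 lines carry no circle.

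The 7 genes with an annotated 3′UTR and no match there were Cck, Syt13, Mki67, Ankrd1, Kcnab3, Hspa1b and Clcc1. Mki67 held 3 matches and Clcc1 held 1 in the coding sequence, and the other 5 held none in the whole transcript. Gm12666 has no 3′UTR in the annotation and could not be searched. The median log2 ratios of these 7 genes were -0.40 without IFN-γ and -0.38 with it, beside -0.43 and -0.57 for the 15 members with a single site and an A, -0.46 and -0.49 for the 8 with more sites including an A, and -0.48 and -0.45 for the 5 with sites but no A. These ratios chose the genes, and no order is read from them.

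Genes outside the group were read by the same classes, in FPKM and with the length trend removed. For 544 other genes with 2 or more sites of which at least 1 had an A, the median log2 ratio in FPKM was -0.30 without IFN-γ and 0.035 with it, beside 0.031 and 0.047 for 7497 genes without a site. With the length trend removed, the same 544 genes stood at -0.091 and -0.053, and the genes without a site at 0.013 and 0.0062. For 678 genes with a single site and an A the medians were -0.18 and 0.037 in FPKM and -0.070 and -0.050 with the length trend removed. For 1579 genes with sites but no A they were -0.12 and 0.087 in FPKM and -0.011 and 0.0054 with the trend removed, close to the genes without a site. The members were 2.16% of the genes with a single site and an A, 1.45% of those with more sites including an A, and 0.0933% of the genes without a site. The sequence of the control siRNA was not analysed here.

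Genes lowered in a single state were read in the same way, with no test of the difference. Of 306 genes lowered without IFN-γ only, 70.6% held a guide match, in 3′UTRs with a median of 2210 bases. Of the same 306 genes, 52.9% held a match with an A and 38.2% held 2 or more sites, beside 65.7% and 22.9% of the members. Of 305 genes lowered with IFN-γ only, 22.6% held a guide match, in 3′UTRs with a median of 424 bases. There 14.4% held a match with an A and 4.26% held 2 or more sites. Per kilobase these sets held 0.521 and 0.342 guide matches, both above the 0.243 past the level filter and below the 0.916 of the members. The 39 genes that met the criteria in both states were 11.1% of those found without IFN-γ and 10.7% of those found with it, and no library was shared between the 2 comparisons.

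The siR_Nostrill values of the members stood at a median of 0.741 of siR_Ctrl without IFN-γ (range 0.411 to 0.798) and 0.696 with it (range 0.429 to 0.796). These values chose the genes and are a description. Over all genes past the level filter the median ratios were 0.989 and 1.04. In edgeR's quasi-likelihood test over 11900 genes, 6 of the 36 were called lower without IFN-γ, where 0.143% of all genes were, and 16 with IFN-γ, where 0.244% of all genes were. Both counts fell to 0 with the 6 libraries of the compared groups alone. Nothing is read from these counts, because the rule used the same libraries. The ratio was lower with IFN-γ in 20 of the 36 genes and lower without it in 16.

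**Figure D3:**
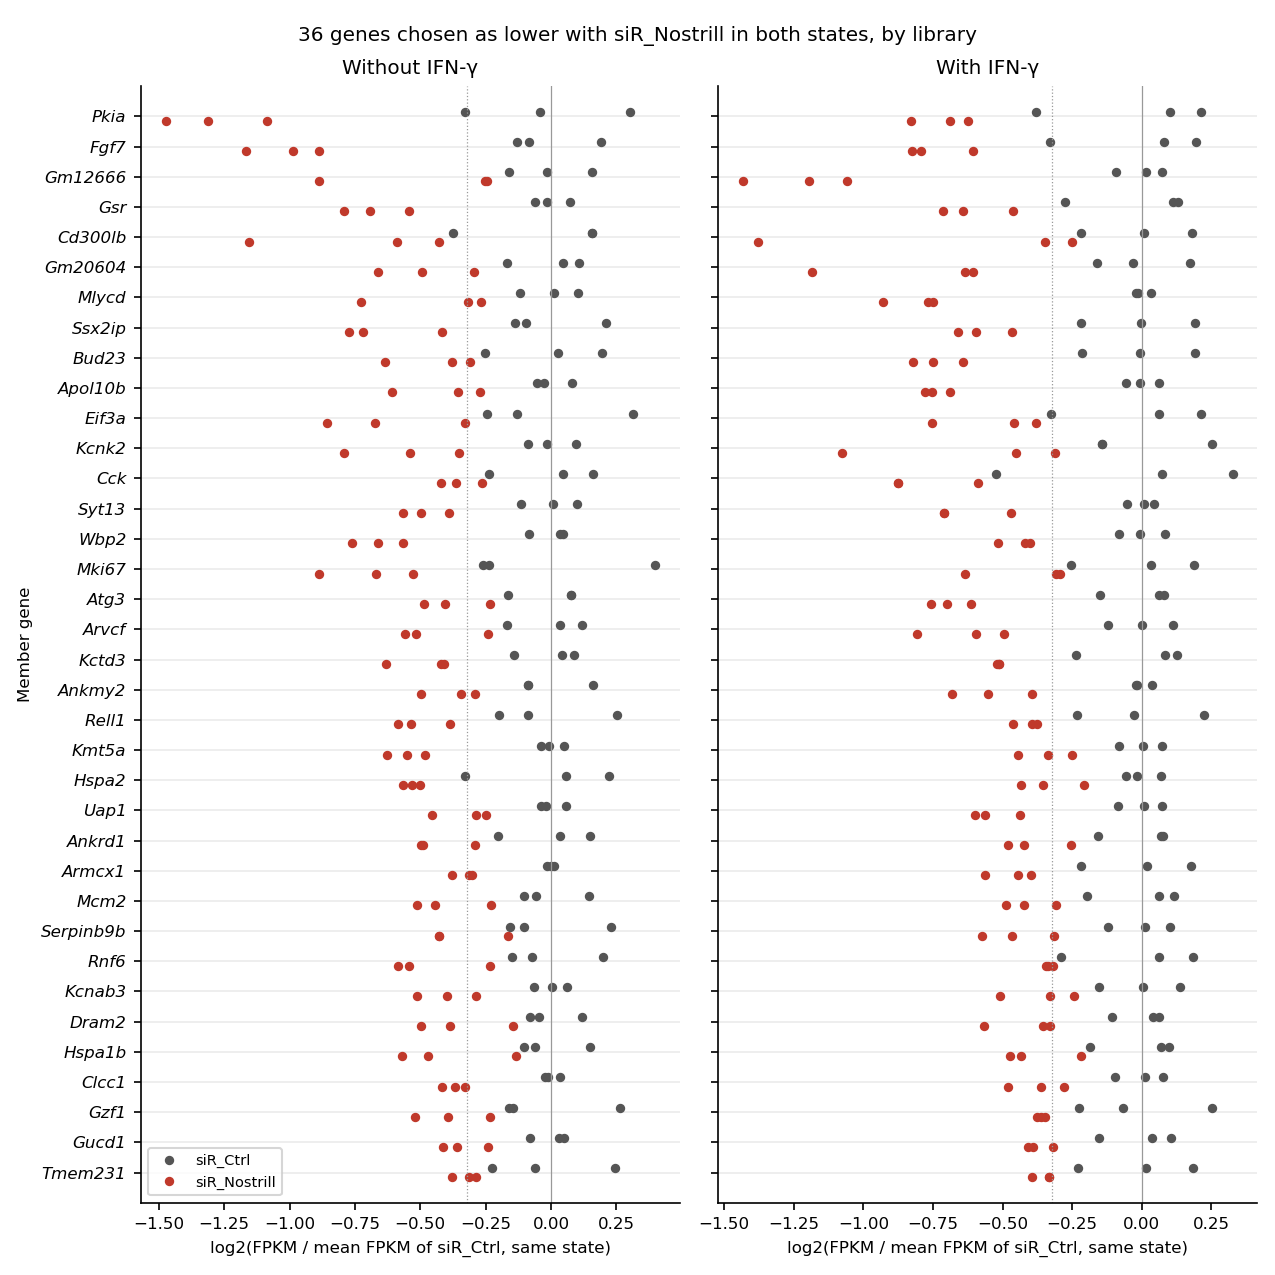
Points are single libraries, as log2 of the FPKM over the mean FPKM of siR_Ctrl in the same state, for siR_Ctrl (grey) and siR_Nostrill (red), without IFN-γ on the left and with it on the right. The dotted line marks a ratio of 0.8. By the rule no red point reaches a grey point of its gene, and the lowest genes at the top are Pkia and Fgf7.

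Among the signalling genes, Pkia had the lowest mean ratio. It encodes an inhibitor that binds the catalytic subunit of protein kinase A. Pkia stood at 7.97, 5.16 and 6.29 FPKM in siR_Ctrl cells and at 2.61, 2.33 and 3.05 FPKM in siR_Nostrill cells. With IFN-γ it stood at 5.87, 4.20 and 6.34 FPKM against 3.08, 3.55 and 3.39 FPKM. The ratios were 0.411 and 0.611, and no siR_Nostrill library exceeded 3.55 FPKM. Of the 8 genes of protein kinase A and its inhibitors tested, 1 was called lower without IFN-γ, Pkia itself, and none was called with it in edgeR (1 at an unadjusted p under 0.05). Here and in the lists below the rule chose the members on the same contrast, so nothing is read from a member's call beside the other genes of its list.

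Fgf7, a growth factor made by mesenchymal cells that acts on epithelial cells, came next. Its siR_Ctrl values were 34.8, 27.9 and 28.8 FPKM and its siR_Nostrill values 15.4, 13.6 and 16.5 FPKM, a ratio of 0.497. With IFN-γ the values were 19.7, 13.7 and 18.2 FPKM against 11.3, 9.93 and 9.70 FPKM, a ratio of 0.600. Among 13 tested growth factor genes of the EGF, FGF, Wnt and Notch pathways, 1 was called lower in each state, and it was Fgf7 itself. The peptide hormone gene Cck went from 48.4, 63.8 and 58.9 FPKM to 47.5, 42.6 and 44.3 FPKM without IFN-γ. With IFN-γ it went from 53.4, 44.8 and 29.6 FPKM to 28.3, 23.2 and 23.2 FPKM, and the lowest siR_Ctrl library lay just above the highest siR_Nostrill library. Cd300lb, a receptor of myeloid cells, was close to the limit of detection, with 0.790 to 1.14 FPKM in siR_Ctrl cells and as few as 9 reads in a library.

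Metabolic enzymes formed a second group. Gsr encodes glutathione reductase, which restores reduced glutathione. It went from 49.8, 45.3 and 46.8 FPKM to 27.3, 29.3 and 32.5 FPKM without IFN-γ, a ratio of 0.627. With IFN-γ it went from 45.2, 34.5 and 45.7 FPKM to 30.3, 26.8 and 25.5 FPKM, a ratio of 0.659. Mlycd, malonyl-CoA decarboxylase, breaks down the malonyl-CoA that restrains fatty acid oxidation. Its ratio was 0.745 without IFN-γ and 0.569 with it, where the libraries read 3.02, 3.12 and 3.0 FPKM against 1.79, 1.60 and 1.81 FPKM. Of 15 tested genes of malonyl-CoA and fatty acid oxidation, 1 was called lower with IFN-γ, Mlycd itself, and none was called without it in edgeR (1 higher and 2 lower at an unadjusted p under 0.05). Uap1, which makes the sugar donor UDP-N-acetylglucosamine, had ratios of 0.797 and 0.691.

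Genes of translation, ribosome assembly and proliferation included the most abundant members. Eif3a, a core subunit of translation initiation factor eIF3, had siR_Ctrl values of 212, 144 and 156 FPKM and siR_Nostrill values of 94.2, 107 and 136 FPKM. With IFN-γ it stood at 148, 113 and 164 FPKM against 109, 103 and 84.0 FPKM, and the groups were separated by a small gap. Bud23, which methylates 18S ribosomal RNA, had ratios of 0.740 and 0.600. Mcm2, a subunit of the replicative helicase, went from 152, 128 and 132 FPKM to 96.2, 101 and 117 FPKM without IFN-γ and had a ratio of 0.755 with it. Mki67, the gene of the proliferation marker Ki-67, had ratios of 0.621 and 0.756. Its siR_Ctrl libraries were uneven, with 87.5 FPKM in replicate 1 and 55.4 and 56.3 FPKM in the other two. Mki67 is the longest member, with an effective length of 9130 bases. With the length trend removed its ratios were 0.829 without IFN-γ, above the threshold of 0.8, and 0.670 with it. Kmt5a, which places a single methyl group on lysine 20 of histone H4, went from 94.9, 89.3 and 91.2 FPKM to 62.6, 59.4 and 65.8 FPKM, and with IFN-γ from 82.7, 74.2 and 78.9 FPKM to 66.1, 62.3 and 57.7 FPKM.

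Centrosome, cilium and cell contact genes were a further set. Ssx2ip, a protein of centrosomes and cell junctions, went from 26.1, 20.5 and 21.1 FPKM to 13.2, 13.7 and 16.9 FPKM, and with IFN-γ from 20.8, 17.9 and 23.8 FPKM to 15.1, 13.8 and 13.2 FPKM. Tmem231, a protein of the ciliary transition zone, had ratios of 0.798 and 0.783. Of 31 tested genes of the centrosome and cilium, 1 was called lower without IFN-γ, the member Ssx2ip (0.143% of all genes were). With IFN-γ 2 were called lower, Ssx2ip and Mns1, which is not a member (0.244% of all genes were). With the compared groups alone, edgeR called 0 genes of any kind lower with IFN-γ. The same held without siR_Ctrl + IFN-γ replicate 1 or any siR_Nostrill + IFN-γ library, so both calls were lost there. The median log2 fold changes of the list were -0.13 and -0.42 beside 0.0051 and -0.0026 over all genes tested. Lists that hold no member were also low at the median with IFN-γ, among them kinesin-1 at -0.38, contractile filaments at -0.35 and spliceosome genes at -0.26. Arvcf, a catenin that binds cadherins, had ratios of 0.741 and 0.648.

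Autophagy, chaperone and transcription genes followed. Atg3, the enzyme that joins LC3-family proteins to lipid, went from 28.1, 33.2 and 33.2 FPKM to 22.5, 26.8 and 23.8 FPKM. With IFN-γ it went from 33.0, 33.4 and 28.5 FPKM to 19.5, 18.7 and 20.7 FPKM, with a wider gap between the groups. Dram2, a lysosomal membrane protein linked to autophagy, had ratios of 0.793 and 0.751. The heat shock genes Hspa2 and Hspa1b had ratios of 0.691 and 0.796, and of 0.770 and 0.775. Of 20 tested genes of the stress response, 1 was called lower in each state, and it was the member Gsr. Wbp2, a transcriptional co-activator, went from 71.2, 65.6 and 71.8 FPKM to 47.0, 41.0 and 44.0 FPKM, and with IFN-γ from 63.1, 66.5 and 70.7 FPKM to 50.5, 46.7 and 49.9 FPKM. Ankrd1, an ankyrin repeat protein and transcriptional regulator, had ratios of 0.746 and 0.766.

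Among membrane and vesicle genes, the potassium channel Kcnk2 had ratios of 0.683 and 0.670, the potassium channel subunit Kcnab3 had 0.759 and 0.780, and the synaptotagmin Syt13 had 0.715 and 0.648. Clcc1, Rell1, Kctd3, Ankmy2, Rnf6, Gzf1, Armcx1, Serpinb9b and Gucd1 had ratios from 0.709 to 0.794 without IFN-γ and from 0.688 to 0.794 with it.

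Gm20604 had ratios of 0.719 and 0.580. Gm12666 had the lowest ratio with IFN-γ, 0.429, from 31.5, 30.3 and 28.1 FPKM to 13.1, 14.4 and 11.1 FPKM. Without IFN-γ its siR_Ctrl libraries read 30.6, 38.2 and 33.9 FPKM and its siR_Nostrill libraries 18.5, 28.7 and 28.9 FPKM, so that siR_Nostrill replicate 1 stood well below the other two. It is the shortest member, with an effective length of 286 bases, and is annotated as a predicted gene of uncertain function.

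After the level filter and the exclusions by name, 127 genes had all siR_Nostrill libraries below the siR_Ctrl libraries in both states. Of these, 36 lay below the ratio threshold. Just inside were Hspa2 at 0.796 with IFN-γ, Uap1 at 0.797 and Tmem231 at 0.798 without it. Just outside were Tmem250-ps at 0.8005 and Mns1 at 0.8054 without IFN-γ and Nus1 at 0.8087 with it. The ratio of Mns1 with IFN-γ, 0.529, was lower than that of all but 1 member.

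Some members overlap other genes or have close copies, and whether reads were shared was not measured. Gm20604 spans the genes Moap1, Tmem251 and Gon7, and Fgf7, Rell1, Arvcf, Clcc1, Dram2 and Bud23 each overlap another protein-coding gene in RefSeq. Hspa1b has the near-identical copy Hspa1a, and Apol10b and Serpinb9b belong to families of close paralogs. Without these 10 genes, 20 of 25 (80.0%) held a guide match in the 3′UTR.

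The members' ratios in other units come from the same libraries that chose them, and TPM only rescales each library, so they are a description and no support. In TPM all 36 had ratios below 1 in both states, with medians of 0.668 and 0.726 beside 0.882 and 1.09 over genes past the level filter. With the length trend removed, all 36 again had ratios below 1, with medians of 0.749 and 0.669 beside 1.0 and 0.999. Ratios of at most 0.8 in both states were kept by 26 of the 36 in TPM and by 30 with the length trend removed. In the latter, Mki67, Arvcf, Mcm2, Gzf1, Gucd1 and Tmem231 lay between 0.806 and 0.858 without IFN-γ. The list itself changed more. The rule chose 26 genes on TPM, of which 12 were among the 36, and 89 on values with the length trend removed, of which 29 were. Guide matches were present in 76.0% and 78.2% of the genes chosen in these ways. Without siR_Ctrl + IFN-γ replicate 2, the library with the highest sum of FPKM, the rule chose 105 genes, of which 80.8% of the 104 with a 3′UTR held a match.

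**Figure D4:**
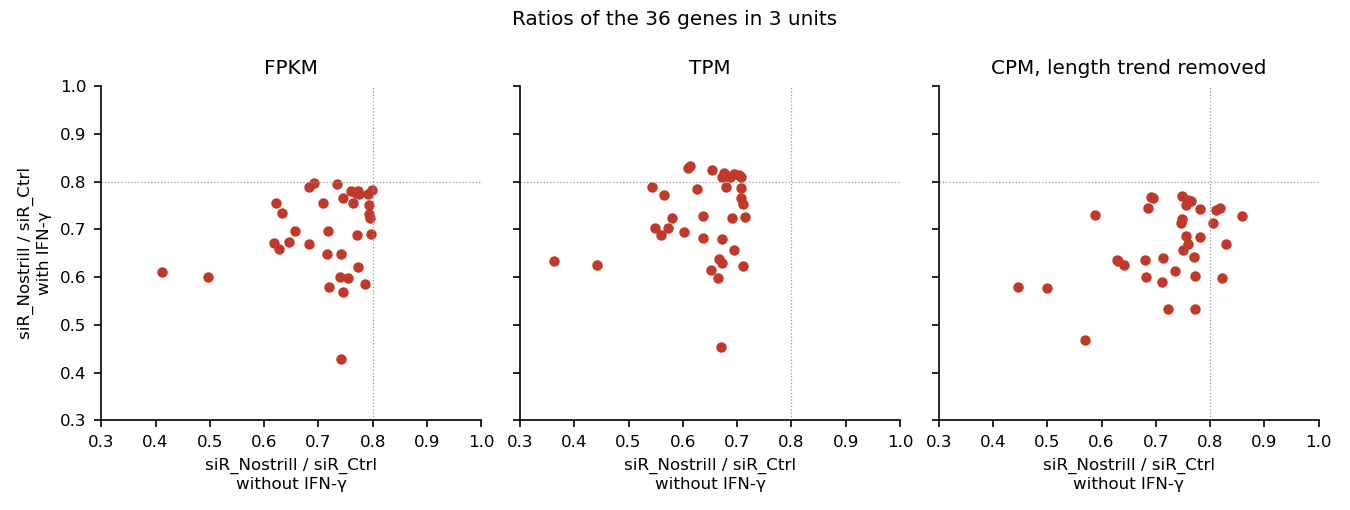
Each point is 1 of the 36 genes, with the ratio of siR_Nostrill to siR_Ctrl without IFN-γ on the horizontal axis and with IFN-γ on the vertical axis, in FPKM, in TPM and in depth-scaled counts with the length trend removed. Dotted lines mark the threshold of 0.8, and every point lies below 0.86 on both axes.

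Libraries that took no part in the choice were read by leaving out 1 replicate number in each group, an analysis added after seeing the data. Replicate numbers are not known to pair the samples, so the ratios in the left-out libraries may be between unpaired cultures. With number 1 left out, the rule on the others chose 51 genes, and in the left-out libraries 37 of them (72.5%) had ratios below 1 in both states, beside 17.2% of genes past the level filter. With number 3 left out it was 24 of 30 genes (80.0%) beside 22.0%. With number 2 left out the rule chose 180 genes, and 58 of them (32.2%) had ratios below 1 in both states beside 11.6%. There the median ratio with IFN-γ was 1.07 for the chosen genes and 1.12 past the level filter, and both lie above 1.

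The question whether IFN-γ itself moved the members was tested within each siRNA, on the libraries that had also served the rule. In siR_Ctrl cells edgeR called 1 of the 36 genes higher with IFN-γ (2.78%, beside 4.71% of all genes tested) and 2 lower (5.56%, beside 0.748%). In siR_Nostrill cells it called 1 higher (2.78%, beside 5.24%) and 5 lower (13.9%, beside 1.55%). Because the rule chose the members on these same libraries, nothing is read from these counts as a trait of the group. The calls of single members below carry the same limit. The 3 genes called in siR_Ctrl cells were called in the same direction in siR_Nostrill cells. The interaction of siRNA and IFN-γ is the difference of the siRNA contrasts that chose the members, so it is a description. edgeR called it for 0 of the 36 and for 0 of all genes tested, with 4 and 1277 at an unadjusted p under 0.05, and the 4 were Gm12666, Apol10b, Mlycd and Pkia.

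Apol10b, of the apolipoprotein L family, was the member that rose, and its siR_Nostrill ratios were 0.755 and 0.598. In siR_Ctrl cells it went from 6.13, 5.59 and 5.69 FPKM to 33.5, 31.9 and 30.8 FPKM with IFN-γ, and in siR_Nostrill cells from 3.81, 4.81 and 4.53 FPKM to 19, 19.9 and 18.7 FPKM. The groups stood far apart in both. The log2 fold changes were 2.54 ± 0.10 (SE, adjusted p = 1.21e-08) and 2.11 ± 0.10 (SE, adjusted p = 7.34e-08) in edgeR with Benjamini-Hochberg adjustment, and the calls held under all 20 alternatives for each siRNA.

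Fgf7 and Syt13 were lower with IFN-γ under both siRNAs. Fgf7, with the values above, fell by 0.76 on the log2 scale in siR_Ctrl cells (edgeR adjusted p = 0.00117) and by 0.57 in siR_Nostrill cells (edgeR adjusted p = 0.00962). The second call was lost without siR_Nostrill + IFN-γ replicate 2 (adjusted p = 0.0556 in edgeR) or replicate 3 (adjusted p = 0.0506 in edgeR). Syt13 went from 13.2, 12.4 and 11.4 FPKM to 9.37, 8.77 and 9.13 FPKM in siR_Ctrl cells and from 8.73, 8.33 and 9.41 FPKM to 6.56, 5.55 and 5.55 FPKM in siR_Nostrill cells. The groups did not overlap. Its log2 fold change was -0.37 ± 0.088 (SE, edgeR adjusted p = 0.0300) in siR_Ctrl cells, a call that 6 of 20 alternatives lost (adjusted p from 0.0010 to 0.177 over the 20). In siR_Nostrill cells it was -0.60 ± 0.089 (SE, edgeR adjusted p = 0.00116), called under all 20 alternatives.

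Gm12666, Cck and Arvcf were called lower with IFN-γ in siR_Nostrill cells and not in siR_Ctrl cells. In siR_Nostrill cells Gm12666 fell by 0.98 on the log2 scale (edgeR adjusted p = 0.00722), Cck by 0.87 (edgeR adjusted p = 0.0340) and Arvcf by 0.43 (edgeR adjusted p = 0.0451). In siR_Ctrl cells the log2 fold changes were -0.14, -0.36 and -0.11. With the length trend removed Cck was called under both siRNAs, at -0.58 in siR_Ctrl cells (edgeR adjusted p = 0.0392) and -0.57 in siR_Nostrill cells (edgeR adjusted p = 0.0390). The Gm12666 call was lost with the length trend removed (adjusted p = 0.0835 in edgeR), where its log2 fold changes were -0.66 in siR_Nostrill cells and -0.38 in siR_Ctrl cells. The Cck call was lost under 7 of 20 alternatives and the Arvcf call under 13 of 20. The Cck and Arvcf calls were lost whichever single library of siR_Nostrill or siR_Nostrill + IFN-γ was left out. Leaving out single siR_Ctrl libraries also lost the Cck call without replicate 3 (adjusted p = 0.0547 in edgeR). For Cck the edgeR adjusted p without a siR_Nostrill or siR_Nostrill + IFN-γ library lay between 0.0669 and 0.132, and for Arvcf between 0.0771 and 0.177.

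**Figure D5:**
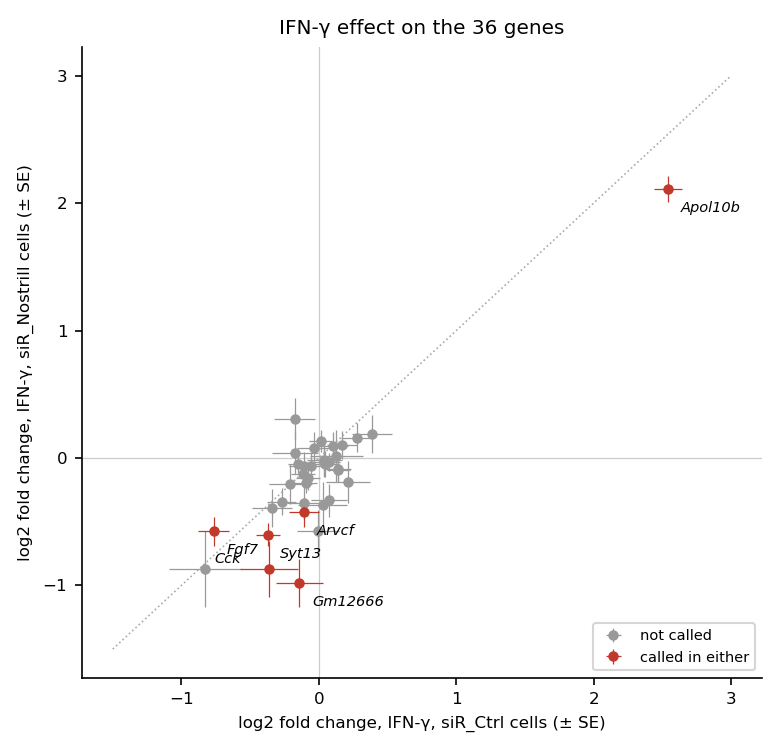
Each point is 1 of the 36 genes, with the edgeR log2 fold change of IFN-γ in siR_Ctrl cells on the horizontal axis and in siR_Nostrill cells on the vertical axis, and bars of 1 SE. Red genes were called under at least 1 siRNA, the dotted line marks equal values, and Apol10b stands apart at 2.54 and 2.11.

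Some genes of the response to double-stranded RNA differed between the siRNAs. Of 21 tested, Ifit1, Oasl1 and Oasl2, named after their values were seen, were called higher and none lower in siR_Nostrill cells without IFN-γ (0.0756% of all genes were called higher), and the list's median log2 fold change was 0.79. edgeR called 0 genes of any kind higher in that comparison with the compared groups alone, or without siR_Ctrl replicate 1, any siR_Nostrill library or siR_Nostrill + IFN-γ replicate 2, so the calls were lost there. Without siR_Ctrl replicate 2 it called 1 gene higher, and without siR_Nostrill + IFN-γ replicate 1 or replicate 3 it called 2. Not all 3 calls could hold in those fits. None of the 21 was called with IFN-γ in edgeR (5 higher at an unadjusted p under 0.05), where the median was 0.23. The summed FPKM of the list was 136 to 187 in siR_Ctrl cells and 255 to 302 in siR_Nostrill cells, and with IFN-γ 589 to 762 and 738 to 838. Most of the difference without IFN-γ came from Isg15, whose mean was 78.2 FPKM in siR_Ctrl cells and 176 FPKM in siR_Nostrill cells and which was not called (adjusted p = 0.151 in edgeR). No member is on that list. None of the 12 tested genes of the RNA interference machinery was called in either state in edgeR, with 4 lower without IFN-γ and 0 with it at an unadjusted p under 0.05 and median log2 fold changes of -0.25 and -0.022. The part of this response, or of pairing with the guide seeds, in the lower values of the members was not tested.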

How the data were processed

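Processed tables of 12 libraries (4 groups of 3) were used. Per the study's methods, mRNA was enriched with oligo(dT), read as pairs of 100 bases, cleaned by SOAPnuke and mapped by HISAT2 and Bowtie2 on GRCm38.p6. For the counting tool and strandedness, the sources used here name none. For each of 15002 genes, the authors deposited 3 values, the expected count, FPKM and TPM, FPKM being scaled for length and mapped reads and TPM to a fixed total.

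The members and gene lists were chosen with earlier results of these data known, and the genes to be named followed a set rule: the 20 lowest members, the 10 lowest with an A-flanked or repeated site, list members, members called for IFN-γ and those beside the threshold. Gm20604, a predicted gene with group means below 5 FPKM, was set aside from the 20 lowest and the 10 lowest. It and the other members, among them Kmt5a, Mcm2, Ankrd1, Kcnab3 and Dram2, were named after their values were seen, to account for all 36. Expected counts were rounded and tested with edgeR 4.0.16 in R 4.3.3 (TMM, default filter, all 12 libraries, quasi-likelihood test, Benjamini-Hochberg adjustment, threshold 0.05). All 36 members passed that filter. Alternatives were DESeq2, other normalizations, filters, units, ratio thresholds, a replicate block and single libraries left out. A length trend was removed per library by lowess (span 0.3). Libraries are biological triplicates per the paper, and 17824306 to 19093204 reads each limit precision. The edgeR test of IFN-γ in siR_Ctrl cells was tried on simulated counts with known changes, which carried no length trend. The rule, the siRNA contrasts, the length correction and the seed search were not tried in that way. The guide is the reverse complement of each listed sense strand, and the Nostrill-3 guide lies whole in the antisense cloning primer of Nostrill, which fixes the strand. Seed matches were read from the transcript with the longest 3′UTR per gene, and RefSeq (GRCm38.p6) gave gene positions for all 36 members. Python 3.11.15 was used.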

Additional observations from a re-analysis of the deposited data

How the results depend on the processing

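Members called by edgeR for IFN-γ numbered 3 in siR_Ctrl cells, and 5 with the length trend removed, beside 649 and 1328 of all 11900 genes. In siR_Nostrill cells members called numbered 6, and 11 with the length trend removed, beside 807 and 2260 of all 11900 genes. Leaving out single libraries gave 2 to 3 and 3 to 6 members, with 3 in siR_Nostrill cells without siR_Nostrill + IFN-γ replicate 2 or replicate 3. For siR_Nostrill against siR_Ctrl the 6 members called without IFN-γ became 17 with DESeq2 1.42.0, 23 with the length trend removed, and 0 with the 6 libraries of the compared groups alone (30 at an unadjusted p under 0.05). The 16 called with IFN-γ became 29, 33 and 0 (35 unadjusted). Over all genes, the calls without IFN-γ were 26 in the main fit, 257 with DESeq2, 410 with the length trend removed and 0 with the compared groups alone. With IFN-γ they were 51, 601, 1543 and 0 in the same order. Leaving out single libraries gave member counts of 0 to 6 and 0 to 19. The count was 0 without IFN-γ when siR_Ctrl replicate 1, any siR_Nostrill library or siR_Nostrill + IFN-γ replicate 2 was left out, and 0 with IFN-γ when siR_Ctrl + IFN-γ replicate 1 or any siR_Nostrill + IFN-γ library was left out (24 to 36 members at an unadjusted p under 0.05 in these fits). Deviations of same-numbered libraries correlated between -0.495 and 0.725, and those of differently numbered libraries between -0.812 and 0.769. Because the length trend also differed between libraries, these correlations cannot decide whether replicate numbers pair the samples. With a replicate block 8 members were called with IFN-γ, 5 without it, and 3 and 6 for IFN-γ. The rule chose 15 genes at a ratio of 0.75, 63 at 0.85 and 89 with the length trend removed. It chose 32 (without siR_Ctrl + IFN-γ replicate 3 or siR_Nostrill replicate 1) to 105 genes (without siR_Ctrl + IFN-γ replicate 2) when single libraries were left out, and 180 without replicate 2 of every group, an alternative added after seeing the data, as were the shares for other member lists. The share of members with a guide match was 80.0%, 20% in coding sequence and 40% for passenger strands. With bases 2 to 7 alone it was 85.7%, beside 63.3% past the level filter. Without single libraries it was 69.8% to 83.8%. The median log2 ratio was -0.43 without IFN-γ and -0.58 in TPM, and ranged from -0.497 to -0.404 without single libraries. With IFN-γ it was -0.52, and -0.46 in TPM, -0.57 in edgeR and -0.58 with the length trend removed, and ranged from -0.55 to -0.44 without single libraries. Where a cause is not shown by the construction of an alternative, the cause was not tested. Members with few reads, such as Cd300lb with 9 reads in a library, are limited by depth.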
